A study of Mus musculus with 15 samples.

Results

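Axin2, Lgr5, Tbx3, Nkd1, Sp5, Znrf3, Rnf43, Lef1, Ctnnb1 and Apc, which are target and feedback genes of Wnt signalling together with 2 genes of its core, were followed in 15 single mouse liver tumors. The 10 members were chosen by name, and all 10 were found among the 22594 gene names of the arrays that match a RefSeq symbol or synonym, with 14 probes in all. Where a gene had several probes, the one with the highest mean log2 signal stood for it. The tumors formed 3 groups of 5: hepatocellular carcinoma (HCC) of p53f/f controls, HCC of the p53LKO genotype, and p53LKO tumors that the labels call intrahepatic cholangiocarcinoma (ICC). Mice with 2 floxed Trp53 alleles (p53f/f) keep p53 and are the controls of p53LKO mice, in which Trp53 was deleted in the liver. The study compared such tumors to see how the loss of p53 changes gene expression in liver cancer.

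All mice were on a C57/BL6J background and received carbon tetrachloride (CCl4), a hepatotoxin, at 0.5 µl per g body weight every 3 days from 6 weeks of age for 16 weeks, also the controls. The legend of the array data names male mice. The age of the arrayed tumors and the promoter that drives Cre were not given in the sources used here. The paper reports that tumors arose much later in p53f/f than in p53LKO mice. Age may thus differ between the genotypes, and its effect cannot be told apart from that of genotype. The p53f/f HCC came from 4 mice, since mouse 3717 gave 2 tumors (T1 and T2), while each p53LKO group came from 5 mice, 4 of which gave 1 HCC and 1 ICC each. RNA came from whole carcinoma tissue, so that fewer cells of a type and less RNA per cell cannot be told apart.

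In the canonical Wnt pathway, a ligand bound to Frizzled and LRP receptors stops a destruction complex built on Axin and Apc from marking beta-catenin (Ctnnb1) for degradation, and beta-catenin then enters the nucleus and activates genes together with TCF and LEF factors. Several of these target genes feed back on the pathway: Axin2 rebuilds the destruction complex, Nkd1 binds Dishevelled, and Rnf43 and Znrf3 remove Frizzled from the cell surface. In the liver, beta-catenin sets the gene program of hepatocytes around the central vein, such as Glul and Cyp2e1, and activating mutations of Ctnnb1 are frequent in HCC. Since beta-catenin is regulated mainly as a protein, the mRNA of Ctnnb1 itself is no measure of its activity.

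Levels are given as the log2 of the array signal relative to the 75th percentile of its array, so that 0 is a bright gene, and levels of different genes cannot be set against each other because probes differ. On the arrays, 37.0% to 70.1% of the probes were well above background. The 7 arrays in the lower rows of the 2 slides, which carried all 5 ICC and the p53LKO HCC of mice 3976 and 5283, had a brighter background: the median level of probes not above it was -5.19 to -4.17 there, against -7.12 to -5.68 on the 8 arrays in the upper rows. Low levels were thus bounded differently in the rows, and in the ICC comparison row can be told apart from group only through the 2 p53LKO HCC in a lower row. The hepatocyte markers (9 of 9 with a probe) were well above background on every array, with summed relative signals of 2430 to 3250 in p53LKO HCC and 856 to 1870 in p53LKO ICC, and of 10 biliary markers Krt7, Krt19, Epcam and Spp1 were higher in ICC, Epcam at least 94.0-fold because it was not well above background in any p53LKO HCC. The Trp53 probe read -1.27 to -0.68 in p53f/f HCC, -3.86 to -2.75 in p53LKO HCC and -4.19 to -2.31 in p53LKO ICC. The array annotation places this probe on chromosome 17 rather than at Trp53, so it was not used as a check of the deleted exons.

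Promoters are shown for Sp5 and Axin2, since their levels moved together most closely across the tumors (described further on). RefSeq promoters (GRCm38.p6, windows of 300 bases around the start, most of it upstream) were matched for 6 of the 10 members. Capitals mark CTTTGA, the core of the site that TCF and LEF factors bind, or its reverse complement TCAAAG.
Sp5, chr2:70474673-70474972, plus strand: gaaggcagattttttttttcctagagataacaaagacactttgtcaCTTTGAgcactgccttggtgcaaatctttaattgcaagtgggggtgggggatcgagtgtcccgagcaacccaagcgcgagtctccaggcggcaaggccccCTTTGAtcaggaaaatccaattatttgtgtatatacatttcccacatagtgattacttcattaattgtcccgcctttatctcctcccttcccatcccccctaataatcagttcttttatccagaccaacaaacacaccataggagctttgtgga
Axin2, chr11:108920099-108920398, plus strand: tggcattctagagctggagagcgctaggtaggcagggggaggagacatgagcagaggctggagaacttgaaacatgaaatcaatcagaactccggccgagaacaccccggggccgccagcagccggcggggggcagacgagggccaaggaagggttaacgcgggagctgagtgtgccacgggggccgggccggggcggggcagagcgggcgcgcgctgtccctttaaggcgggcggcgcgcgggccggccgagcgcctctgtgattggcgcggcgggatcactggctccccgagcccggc
The Sp5 window held CTTTGA 2 times, with first bases at -204 and -104 from the start, and the second copy was followed by T to give CTTTGAT. The Axin2 window held none, and neither did those of Nkd1, Rnf43 and Ctnnb1, whereas 1 of 4 Lef1 promoters held TCAAAG 2 times. On either strand, 16.0% of the 32851 RefSeq promoters of this length held CTTTGA and 3.73% held CTTTGAT, and a match describes these letters only.

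Between HCC of the 2 genotypes, no member passed the test. All 10 were tested, and 0 reached an adjusted p (limma, Benjamini-Hochberg) under 0.05, with or without the additional limit of a 2-fold change. Of all 36086 probes tested, 3.64% were higher and 16.0% lower in p53LKO HCC by both limits, and the count at an unadjusted p under 0.05 was 15943. The ranges of the 2 groups overlapped for every member, while 6.09% of all probes were higher and 16.4% lower without overlap. The median log2 fold change was -0.06 over the members and -0.12 over all probes tested. Intervals were wide for the targets, so that for Lgr5 (0.00 ± 1.21, SE) the 95% interval ran from -2.66 to 2.67 and holds large changes in both directions. The targets differed in opposite directions on the slides: on slide 1, with 2 p53LKO and 4 p53f/f HCC, the log2 difference was 2.06 for Axin2, 1.51 for Lgr5, 1.07 for Sp5 and 1.21 for Tbx3, and on slide 2, with 3 and 1, it was -1.50, -2.73, -2.26 and -1.74. On slide 1 both p53LKO HCC lay in the lower row and all 4 p53f/f HCC in the upper, so genotype cannot be told apart from row there. Neither of these p53LKO HCC was well above background for Lgr5 or Sp5. On the upper row alone, with 3 and 5 tumors, it was -0.24, -0.65, -1.45 and -1.49. Scaled to the spike-in probes, which moved the median of all probes by 0.72, Nkd1 (1.40), Ctnnb1 (1.12) and Apc (1.30) were called higher in p53LKO HCC. This scaling subtracts 1 value per array and moves every difference alike, so the calls are not particular to these genes. The share of all probes called under it was not counted, and the cause of the shift was not tested.

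In ICC against HCC of p53LKO mice, Sp5 and Lgr5 were called higher and Apc lower, but the calls of Sp5 and Lgr5 were lost with row as a block. Sp5 rose by 2.94 ± 0.81 on the log2 scale (SE, 7.66-fold, adjusted p = 0.0138), Lgr5 by 2.91 ± 0.92 (SE, 7.52-fold, adjusted p = 0.0241), and Apc fell by 1.61 ± 0.16 (3.05-fold, adjusted p = 7.97e-05; limma, n = 5 in each group). Sp5 was well above background in 4 ICC and 1 HCC and Lgr5 in 5 ICC and 2 HCC, so both entered the test only through the group in which they were higher, and their folds are set against HCC means that rest mostly on values not well above background. Apc was well above background on all 10 arrays. With row as a block the differences were 1.55 for Sp5 (adjusted p = 0.220), 1.93 for Lgr5 (adjusted p = 0.241) and -1.66 for Apc (adjusted p = 0.00171). These values rest on the 2 p53LKO HCC in a lower row, neither of which was well above background for Sp5 or Lgr5. The 1.55 and 1.93 are thus set against a bright background and do not measure a smaller rise. With the mouse as a block Sp5 also lost its call (2.16, adjusted p = 0.108). The exact 2-sided permutation test over arrays gave p = 0.0159, 0.0397 and 0.00794 for the 3 genes. On slide 1, with 1 ICC and 2 HCC, the differences of Sp5, Lgr5 and Apc were 1.83, 3.12 and -1.78, and on slide 2, with 4 and 3, they were 3.79, 3.27 and -1.54. On slide 1 all of these lay in the lower row, while on slide 2 the ICC lay in the lower and the HCC in the upper row. The other 7 members did not pass. By the same limits, 12.9% of all 32670 probes tested were higher and 13.4% lower in ICC, so 2 of 10 higher and 1 of 10 lower members are shares near the background. Only Apc did not overlap between the groups, where 9.98% of all probes were higher and 18.6% lower without overlap. The median log2 fold change was 0.62 over the members and -0.16 over all probes.

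**Figure D1:**
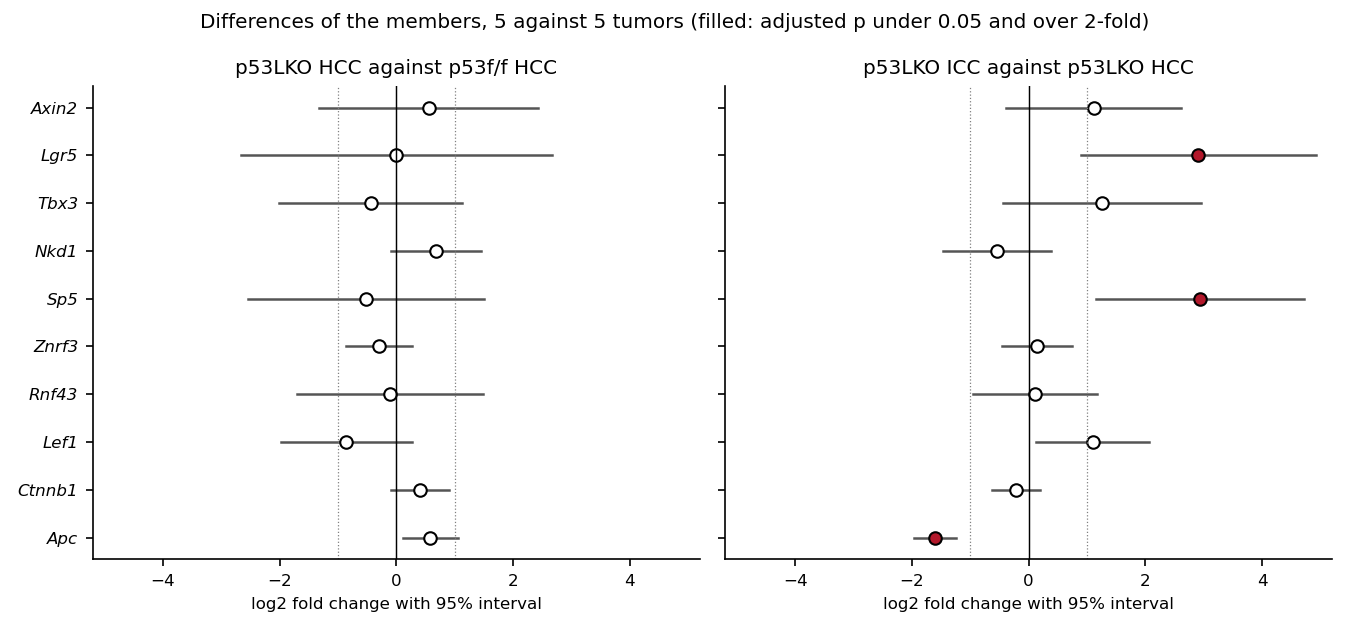
Log2 fold change of each member with its 95% interval (x axis) for p53LKO HCC against p53f/f HCC (left) and p53LKO ICC against p53LKO HCC (right), 5 against 5 tumors each; dotted lines mark a 2-fold change and filled points passed both limits. No point is filled on the left, and Sp5 at 2.94, Lgr5 at 2.91 and Apc at -1.61 are filled on the right. Znrf3 was not well above background in any ICC.

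Axin2, a scaffold of the destruction complex and the most widely used readout of beta-catenin activity, varied widely within every group. In p53f/f HCC its level was -3.30 in mouse 3681, -2.0 in mouse 3715, -5.03 in mouse 3716, and -6.30 and -2.58 in T1 and T2 of mouse 3717. In p53LKO HCC it was -2.75 in mouse 3976, -1.45 in mouse 5283, -3.27 in mouse 3731, -4.15 in mouse 3733 and -4.81 in mouse 3975. In ICC it was -1.61 in mouse 3731, -3.18 in mouse 3733, -0.94 in mouse 3976, -1.42 in mouse 3977 and -3.66 in mouse 5283. The groups overlapped throughout, and 3, 4 and 3 of the 5 arrays were well above background, the lowest tumors of each group being those that were not. The difference was 0.56 ± 0.85 (SE, adjusted p = 0.644) for HCC by genotype and 1.12 ± 0.68 (adjusted p = 0.200) for ICC. The second Axin2 probe was not well above background on any array and gave no value, and the probe used has 20% G and C (mm9 chr11:108812034-108812093).

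Lgr5, the R-spondin receptor that marks Wnt-responsive stem cells and pericentral hepatocytes, spanned the widest range of the members. In p53f/f HCC its level was -3.11 in mouse 3681, -1.41 in mouse 3715, -6.36 in mouse 3716, and -6.32 and -1.70 in T1 and T2 of mouse 3717. In p53LKO HCC it was -3.60 in mouse 3976, -1.98 in mouse 5283, -2.25 in mouse 3731, -4.02 in mouse 3733 and -7.03 in mouse 3975. In ICC it was 0.33 in mouse 3731, -2.41 in mouse 3733, -0.32 in mouse 3976, 0.10 in mouse 3977 and -2.02 in mouse 5283. In ICC, 3 tumors lay above every p53LKO HCC and the other two lay within the range of the HCC. The probe (mm9 chr10:114887403-114887462) was also well above background in 3 p53f/f HCC. On the lower row alone the difference was 1.93 (adjusted p = 0.136), set against 2 HCC of which neither was well above background. With the mouse as a block it was 1.86 (adjusted p = 0.0499). The call was also lost without the ICC of mouse 3731 (2.61), 3976 (2.78) or 3977 (2.67), in each case with the direction kept.

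Sp5, a Sp-family zinc finger factor that is a direct target of beta-catenin, had a similar order of tumors. In p53f/f HCC its level was -3.57 in mouse 3681, -2.43 in mouse 3715, -4.98 in mouse 3716, and -6.26 and -3.30 in T1 and T2 of mouse 3717. In p53LKO HCC it was -4.43 in mouse 3976, -2.04 in mouse 5283, -4.00 in mouse 3731, -5.72 in mouse 3733 and -6.94 in mouse 3975. In ICC it was -1.40 in mouse 3731, -1.76 in mouse 3733, -1.01 in mouse 3976, -0.91 in mouse 3977 and -3.37 in mouse 5283. In ICC, 4 of 5 tumors were above every p53LKO HCC and the ICC of mouse 5283 was not. The probe (mm9 chr2:70315688-70315747) was also well above background in 3 p53f/f HCC. The rise in ICC was called without each single tumor in turn, but on the lower row alone it was 1.55 (adjusted p = 0.194). Neither HCC of that row was well above background for Sp5, so this value is set against background. In HCC by genotype the difference was -0.52 ± 0.92 (adjusted p = 0.693).

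Tbx3, a T-box repressor induced by beta-catenin in the liver, was well above background on all 15 arrays and so did not share the limit of the dim probes. In p53f/f HCC its level was 0.67 in mouse 3681, 2.25 in mouse 3715, 0.57 in mouse 3716, and 0.55 and 1.32 in T1 and T2 of mouse 3717. In p53LKO HCC it was 1.66 in mouse 3976, 2.77 in mouse 5283, 0.16 in mouse 3731, 0.26 in mouse 3733 and -1.69 in mouse 3975. In ICC it was 2.11 in mouse 3731, 1.33 in mouse 3733, 3.07 in mouse 3976, 2.54 in mouse 3977 and 0.39 in mouse 5283. The highest HCC of each genotype was the one with the highest Axin2. The difference was -0.44 ± 0.71 (adjusted p = 0.666) by genotype and 1.25 ± 0.77 (adjusted p = 0.205) in ICC, the latter turning to -0.33 on the lower row alone.

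**Figure D2:**
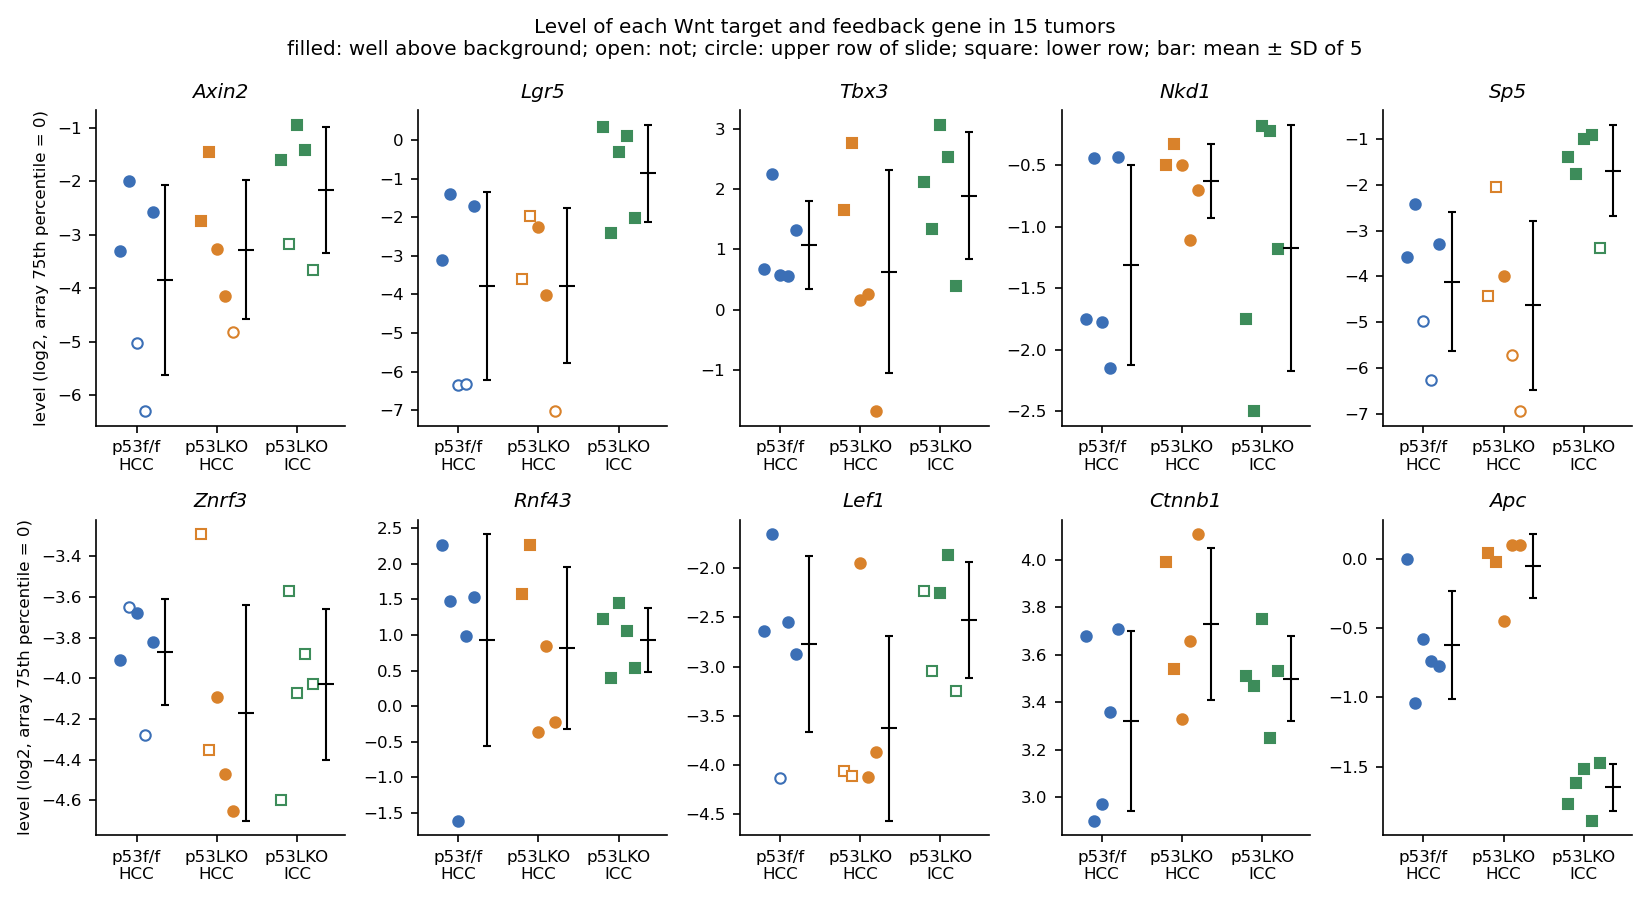
Level of each member (y axis, log2, with the 75th percentile of the array at 0 and a scale of its own per panel) in the 5 tumors of each group, with mean ± SD. Axin2, Lgr5 and Sp5 spread over several log2 units within groups, as does Tbx3 in p53LKO HCC and ICC but not in p53f/f HCC (0.55 to 2.25). Apc separates ICC (-1.89 to -1.47) from p53LKO HCC (-0.45 to 0.10).

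The 3 further feedback inhibitors did not pass the test in either comparison. Nkd1, which inhibits Dishevelled, was at -2.15 to -0.43 in p53f/f HCC, -1.11 to -0.33 in p53LKO HCC and -2.50 to -0.18 in ICC, with a difference of 0.68 ± 0.35 (adjusted p = 0.162) by genotype and -0.54 ± 0.42 (adjusted p = 0.315) in ICC. Its level in p53f/f HCC formed a high pair, mouse 3715 at -0.44 and T2 of mouse 3717 at -0.43, with the other three between -2.15 and -1.75. Rnf43, an E3 ligase against Frizzled, ranged from -1.61 to 2.27, -0.37 to 2.26 and 0.40 to 1.45 in the same order of groups, with differences of -0.11 ± 0.73 (adjusted p = 0.919) and 0.11 ± 0.48 (adjusted p = 0.863). Its direction in HCC by genotype was opposite on the slides, at 1.14 on slide 1 and -1.46 on slide 2, the second of which held 1 p53f/f HCC. On slide 1 genotype and row coincided. Its paralog Znrf3 was dim, at -4.28 to -3.65 in p53f/f HCC and -4.65 to -3.29 in p53LKO HCC (-0.30 ± 0.26, adjusted p = 0.384), and was not well above background in any ICC.

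Lef1, a DNA-binding partner of beta-catenin that is also strongly expressed in T cells, stood out in 1 tumor. It was well above background in 4 p53f/f HCC, 3 p53LKO HCC and 2 ICC. In p53LKO HCC its level was -1.95 in mouse 3731 and -4.13 to -3.87 in the other 4, whereas the p53f/f HCC lay between -4.14 and -1.65 and the ICC between -3.25 and -1.86. The HCC of mouse 3731 was also the highest of the 5 p53LKO HCC for 8 of 10 T cell markers and for 8 of 10 stellate cell and fibroblast markers. Its summed T cell signal of 43.9 was the 4th of the 5 (31.7 to 102), but Cd4 made up 71.9% to 92.4% of these sums, and without Cd4 it was the highest, at 12.3 against 6.52 to 9.31. The part of other cells in its Lef1 level was not tested. The difference was -0.86 ± 0.51 (adjusted p = 0.220) by genotype and 1.10 ± 0.44 (adjusted p = 0.0635) in ICC. Without the HCC of mouse 3731 the first became -1.27 and was called, against 4 p53LKO HCC of which 2 were well above background. The second was called without the ICC of mouse 5283 (1.28) and with scaling to probes above background on all arrays (1.46), and it rests on ICC of which 3 of 5 were not well above background.

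The core genes of the pathway varied least within groups. Ctnnb1, which encodes beta-catenin, was at 2.90 to 3.71 in p53f/f HCC, 3.33 to 4.11 in p53LKO HCC and 3.25 to 3.75 in ICC, with differences of 0.40 ± 0.23 (adjusted p = 0.197) and -0.22 ± 0.19 (adjusted p = 0.348). Apc, the scaffold that holds beta-catenin in the destruction complex, was at 0.00 in mouse 3681, -1.04 in mouse 3715, -0.58 in mouse 3716, and -0.74 and -0.77 in T1 and T2 of mouse 3717 among the p53f/f HCC. In p53LKO HCC it was 0.04 in mouse 3976, -0.02 in mouse 5283, -0.45 in mouse 3731, and 0.10 in both mouse 3733 and mouse 3975, and in ICC it was -1.77 in mouse 3731, -1.62 in mouse 3733, -1.52 in mouse 3976, -1.89 in mouse 3977 and -1.47 in mouse 5283. Every ICC was below every HCC of the same genotype, and the permutation p of 0.00794 is the smallest that the 252 exact splits allow. The fall was -1.66 on the lower row alone and -1.51 with the mouse as a block (adjusted p = 0.00895). The first is the same contrast as with row as a block, since all ICC lay in the lower row. By genotype Apc was 0.58 ± 0.21 higher in p53LKO HCC (adjusted p = 0.0572), which did not pass. The array annotation gives no position for this Apc probe, and the other Apc probe was well above background in 3 p53f/f HCC, 1 p53LKO HCC and 0 ICC, so the fall rests on 1 probe.

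The spread among tumors of a group was large for 5 of the 8 targets and small for the core. The pooled SD within groups was 1.96 for Lgr5, 1.49 for Sp5, 1.44 for Axin2, 1.22 for Tbx3 and 1.11 for Rnf43, against a median of 0.44 over 36385 probes, which puts these 5 members at the 99.6th, 98.6th, 98.4th, 96.5th and 94.9th percentiles. It was 0.83 for Lef1, 0.76 for Nkd1 and 0.40 for Znrf3, at the 85.8th, 82.6th and 43.9th percentiles. For Ctnnb1 and Apc it was 0.31 and 0.28, at the 25.4th and 19.4th percentiles. Much of the range of Axin2, Lgr5 and Sp5 lies near background, where the SD also holds noise, whereas Tbx3 and Rnf43 were measured on every array.

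Tumors that were high for 1 of Axin2, Sp5, Lgr5 and Tbx3 were mostly high for the others, which did not extend to every target. Over the 15 tumors, the deviations from the group mean correlated with r = 0.93 for Axin2 and Sp5, 0.90 for Axin2 and Lgr5, 0.87 for Lgr5 and Sp5, 0.85 for Sp5 and Tbx3, 0.82 for Axin2 and Tbx3, and 0.72 for Lgr5 and Tbx3. With deviations taken from the mean of group and row together, these 6 correlations were 0.76 to 0.92. With the same 4 genes, Nkd1 had r = 0.50 to 0.69, Rnf43 0.55 to 0.62, Lef1 0.20 to 0.56 and Znrf3 0.16 to 0.30, while Ctnnb1 had -0.28 to -0.08 and Apc -0.35 to -0.21. These are descriptions over 15 arrays that share 2 slides, and the 4 genes were picked for their correlation. Their deviations also correlated with the share of probes well above background on an array, with r = -0.42 for Axin2, -0.50 for Sp5, -0.26 for Lgr5 and -0.68 for Tbx3. With the summed macrophage markers r was 0.36, 0.47, 0.47 and 0.46 in the same order, and with the summed hepatocyte markers -0.23 to -0.02. The part of these measures in the correlations was not tested.

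The same single tumors ranked first or last for several members, but some of these ranks rest on values not well above background. Among p53f/f HCC, the tumor of mouse 3715 was the highest for 6 of the 10 members (5 of them well above background) and the lowest for 2, and T1 of mouse 3717 was the lowest for 5 (2 well above background), although T2 of the same mouse was the highest for 2 and the lowest for 0. Among p53LKO HCC, the tumor of mouse 5283 was the highest for 6 (4 well above background) and that of mouse 3975 the lowest for 5 (2 well above background). The values of Lgr5 and Sp5 in the HCC of mouse 5283 were not well above background, on the array with the brightest background of the 15 (median of probes not above it -4.17). Among ICC, the tumor of mouse 3976 was the highest for 5, all well above background, and that of mouse 5283 the lowest for 4, of which 1 was.

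**Figure D3:**
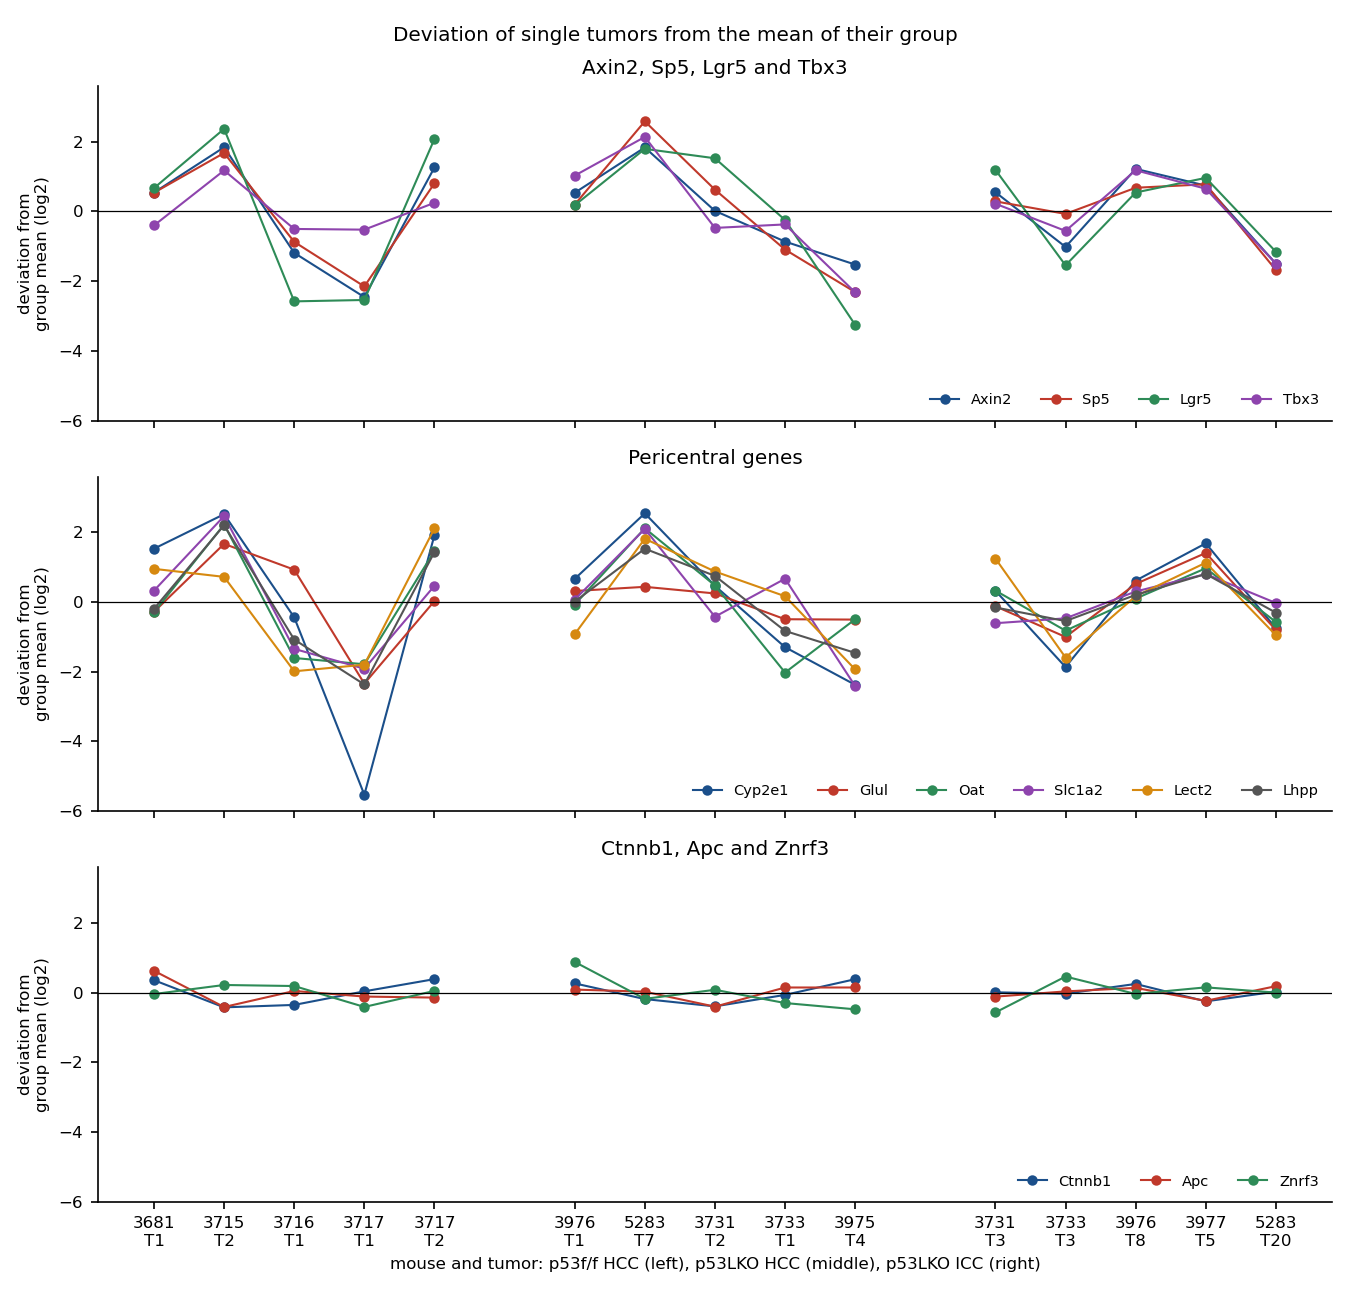
Deviation of each tumor from the mean of its group (y axis, log2) for Axin2, Sp5, Lgr5 and Tbx3 (top), for 6 pericentral genes (middle) and for Ctnnb1, Apc and Znrf3 (bottom), with tumors on the x axis and lines joining tumors of 1 group for the eye only. The tumors of mouse 3715 and mouse 5283 (HCC) lie high in the top and middle panels and T1 of mouse 3717 lies low, while the bottom panel spreads less around 0 than the top panel. Values not well above background are included.

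The genes whose deviations were most like those of Axin2, among 13274 genes well above background on at least 12 arrays, were Cyp2e1 (r = 0.92), Lhpp (0.90), Slc25a13 (0.90), Rgn (0.88) and Slco1b2 (0.88). For Lgr5 they were Lect2 (0.93), Cyp26b1 (0.90), Lhpp (0.90), D630039A03Rik (0.88) and Plxnc1 (0.87). Cyp2e1, a cytochrome P450 of pericentral hepatocytes and the enzyme that activates CCl4, was at 6.0, 6.99 and 4.03 in the p53f/f HCC of mice 3681, 3715 and 3716, and at -1.06 and 6.39 in T1 and T2 of mouse 3717. In p53LKO HCC it was 4.86, 6.74, 4.66, 2.90 and 1.82 in mice 3976, 5283, 3731, 3733 and 3975. In ICC it was 6.46, 4.27, 6.75, 7.82 and 5.38 in mice 3731, 3733, 3976, 3977 and 5283. The tumor with the lowest Axin2 and the one with the lowest Cyp2e1 were the same in both HCC groups, and the highest were the same there too, namely mouse 3715 and mouse 5283. In ICC neither end was the same, Axin2 being highest in mouse 3976 and lowest in mouse 5283, and Cyp2e1 highest in mouse 3977 and lowest in mouse 3733. Glul, glutamine synthetase, was 0.93 in T1 of mouse 3717 and 2.99 to 4.94 in the other p53f/f HCC, 4.04 to 4.98 in p53LKO HCC and 3.76 to 6.17 in ICC.

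Of the pericentral genes known to depend on beta-catenin, 17 of 18 had a probe, and 12 of these 17 had r over 0.5 with Axin2 (median 0.73, from -0.46 for Slc1a4 to 0.92). Of 16 periportal genes, which beta-catenin represses, 0 had r over 0.5 (median 0.14, from -0.33 to 0.41). Over all 13274 genes compared, 620 had r over 0.5 and the median was 0.00. The ornithine aminotransferase Oat (0.86), the glutamate transporter Slc1a2 (0.80), the ammonium transporter Rhbg (0.77) and Glul (0.73) were among the 12, while Cyp1a2, a further pericentral P450, had 0.35.

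**Figure D4:**
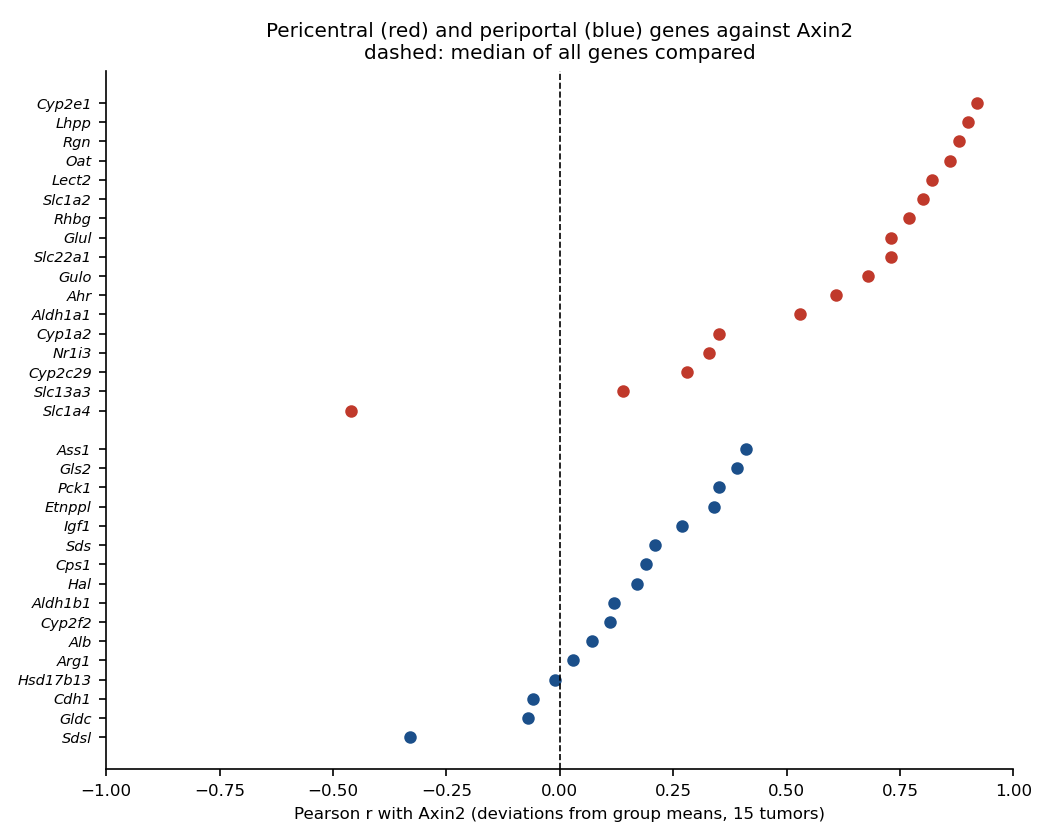
Pearson r with Axin2 of the deviations from group means over 15 tumors (x axis) for 17 pericentral genes in red and 16 periportal genes in blue, with the median of all genes compared as a dashed line. Of the pericentral genes, 12 lie beyond 0.5, and the periportal genes lie between -0.33 and 0.41.

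Of the pericentral genes, 0 of 17 tested were called by genotype in HCC (median log2 fold change 0.10, against -0.06 over the brightest probe of each gene name). By that probe, 4.02% of 25759 names were called higher and 14.6% lower by genotype, and 13.1% of 23917 names higher and 13.9% lower in ICC, counting also names that match no RefSeq symbol or synonym, which is the background of this and the following lists. In ICC against HCC, 4 of 17 were higher and 3 lower (median 0.47, against -0.17). Those higher were Oat (2.0 ± 0.65, adjusted p = 0.0276), Slc1a2 (2.46 ± 0.68, adjusted p = 0.0135), Lhpp (1.97 ± 0.51, adjusted p = 0.0103) and the receptor Ahr (2.05 ± 0.39, adjusted p = 0.00206), and only Ahr did not overlap between groups. Those lower were Cyp2c29, Slc13a3 and Aldh1a1, of which Aldh1a1 fell by 2.48 ± 0.42 (adjusted p = 0.0011). Cyp2e1 did not pass in either comparison (-0.27 ± 1.45 and 1.94 ± 0.90, adjusted p = 0.904 and 0.101), nor did Glul (1.27 ± 0.62 and 0.22 ± 0.43, adjusted p = 0.136 and 0.704). Of the 16 periportal genes, 0 were higher and 5 lower in p53LKO HCC, where 14.6% of all gene names were lower, among them Pck1 (-3.03 ± 0.54), the gluconeogenic enzyme, and 0 were higher and 9 lower in ICC, where 13.9% were, among them Cyp2f2 (-4.68 ± 0.84). The hepatocyte markers, which share Alb and Cps1 with this list, moved with it in ICC, with 5 of 9 lower and 0 higher (median -1.66, against -1.57 for the periportal genes), and by genotype 1 of 9 was lower and 0 higher (median -0.58). The part of fewer hepatocytes in the fall of the periportal genes was not tested.

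Upstream of the members, 1 of 12 tested Wnt ligands was called in p53LKO HCC, namely Wnt5b (1.99 ± 0.45, adjusted p = 0.00665), a ligand of noncanonical signalling. In ICC 3 were higher and 1 lower: Wnt9a, well above background in 4 ICC and 1 HCC, rose by 3.18 ± 0.55 (adjusted p = 0.0012), Wnt11 by 2.10 ± 0.29 (adjusted p = 0.000385) and Wnt10a by 2.97 ± 0.90 (adjusted p = 0.0205), and Wnt5b fell by 1.81 ± 0.35 (adjusted p = 0.00224). Wnt9a entered the test only through the ICC, so the count of higher ligands is no support for the list. Rspo3, which stabilises Frizzled through Lgr receptors and Znrf3 or Rnf43, and Wls, which carries Wnt ligands to the surface, were higher in ICC by 1.36 ± 0.43 (adjusted p = 0.0243) and 1.39 ± 0.34 (adjusted p = 0.00801), and 0 of 4 genes of that list were called by genotype. Of 12 tested receptors, 0 were called by genotype, and of 13 in ICC 3 were higher (Fzd1, Fzd2 and Ror2) and 2 lower (Fzd4 and Fzd5). Of these, Ror2 was well above background in 1 HCC, Fzd2 in 2 HCC and Fzd5 in 0 ICC, so these 3 entered the test only through the group in which they were higher and the counts are no support for the list.

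Of the Wnt antagonists listed, 6 of 9 tested were higher in ICC and 0 lower (median 1.99), against 13.1% and 13.9% of all gene names. Of the 6, Sfrp1, Wif1 and Sfrp4 were well above background in 5 ICC but in 1, 2 and 0 HCC, so they entered the test only through the group in which they were higher and the count is no support for the list. Sfrp1 rose by 4.98 ± 0.38 (adjusted p = 1.5e-05), Wif1 by 3.92 ± 0.80 (adjusted p = 0.00305), Dkk2 by 3.72 ± 0.41 (adjusted p = 0.000121) and Dkk3 by 1.99 ± 0.33 (adjusted p = 0.00102), all without overlap, and Frzb by 1.05 ± 0.38 (adjusted p = 0.0417). Sfrp4 was at least 31.3-fold higher, since it was not well above background in any p53LKO HCC (adjusted p = 0.000438). Of the 10 stellate cell and fibroblast markers, 5 were higher in ICC and 0 lower, with summed relative signals of 460 to 810 against 72.3 to 237, and the part of these cells in the antagonists and ligands was not tested. By genotype, Dkk2 and Dkk3 were called higher and Wif1 lower among 7 tested. Dkk2 was well above background in 3 p53LKO HCC and 0 p53f/f HCC and Wif1 in 2 and 5, so both entered the test only through the group in which they were higher and these counts are no support for the list either.

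Apart from the members Apc, Axin2 and Nkd1, described above, 0 of 15 genes of the destruction complex and cytoplasmic relay were called in either comparison (medians 0.30 and 0.01). Of the nuclear partners, Tle3, a Groucho corepressor, was higher in p53LKO HCC by 1.14 ± 0.28 (adjusted p = 0.0104), the 1 call of 12 tested, and in ICC Tcf7, which also marks T cells, was higher by 2.44 ± 0.25 (adjusted p = 8.34e-05) and Ctnnbip1, an inhibitor of beta-catenin, lower by a log2 fold change of -1.22 ± 0.24 (adjusted p = 0.00225). Of the 10 T cell markers, 5 were higher and 1, Cd4, was lower in ICC, with summed relative signals of 16.8 to 25.0 against 31.7 to 102 with Cd4 and 8.37 to 16.1 against 6.52 to 12.3 without it, and their part in Tcf7 was not tested. Of 12 further general Wnt targets tested, 3 were higher in p53LKO HCC and 0 lower, against 4.02% and 14.6% of all gene names, namely the cell cycle gene Ccnd1 (1.23 ± 0.29, adjusted p = 0.00888), Myc (1.26 ± 0.33, adjusted p = 0.0146) and Sox4 (1.92 ± 0.47, adjusted p = 0.0106), all of which have many regulators besides beta-catenin. In ICC, Trib2 (2.43 ± 0.44) and Cd44 (1.96 ± 0.29) were higher and Bmp4 (-1.32 ± 0.30) and Prox1 (-1.18 ± 0.25) lower. By genotype, 3 general targets were thus called while the 10 members were not, a difference between lists that was not tested.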

How the data were processed

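RNA of 15 tumors was labelled with Cy3 and hybridised to 1-colour Agilent mouse arrays, 1 per tumor. The authors deposited the output of Agilent Feature Extraction 10.7.3.1, per the labels, which holds a background-subtracted intensity for each spot and a call of whether it was well above background. A deposited table of log2 values of the same arrays also exists, and it equals the rebuilt values after centring each probe on the median of 10 arrays (correlation 1 after rounding, column medians -0.327 to 0.345). Since HCC and ICC columns have different centres, it served only as an alternative for the HCC comparison, and whether probes were filtered before centring is unknown.

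From the scanner values, log2 signals were averaged per probe, and the 75th percentile of the 55681 non-control probes was subtracted on each array. Probes entered a test when at least 3 arrays of either group were well above background. The moderated test of limma 3.58.1 (R 4.3.3) ran on the 10 arrays of each comparison with Benjamini-Hochberg adjustment over all tested probes, and calls needed an adjusted p under 0.05 plus a change of over 2-fold. Single members had an exact 2-sided permutation test over the 252 splits. Figures used matplotlib 3.10.9 (Python 3.11.15). The procedure was tested on simulated data with large shifts in independent normal noise, where no changed probe was called in the wrong direction. These data held no effect of row, background or shared mouse, so the run checked the fit alone. The members and gene lists were chosen with earlier results of these data known. Besides all members, list genes were named where called without overlap (at most 5 per direction), and genes in counts of 5 or fewer, or given as examples of a range, were named after their values were seen. Glul, Oat, Cyp2e1, Cyp1a2, Slc1a2, Rhbg and Lect2, and the 5 genes most like Axin2 or Lgr5, were named whatever they did.

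Groups, mice and tumors came from the labels, and p-values measure the spread between tumors. Within a group, only 2 tumors shared a mouse, both of them p53f/f HCC. The mouse pairs HCC and ICC in 4 animals, whose deviations from the group means correlated at -0.143 to 0.0655, against -0.263 to 0.284 for other pairs. Arrays have no read depth, so their number and the signal over background limit the precision. Alternatives covered background correction, scaling, filters, blocks, tests and leaving out each tumor, and the comparisons within a row were added after seeing the data. Probe positions are those of mm9 in the array files.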

Additional observations from a re-analysis of the deposited data

Results flagged for a closer look

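Dixon's ratio was computed for each member in each group of 5 tumors, 30 groups in all, and 2 exceeded the critical value of 0.71, while chance gives about 1 in 20, or 1.5 of 30. Lef1 was flagged because the p53LKO HCC of mouse 3731 lay at -1.95, far above the other 4 (ratio 0.882). Apc was flagged because the same tumor lay at -0.45, below the other 4 p53LKO HCC (ratio 0.778).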

How the results depend on the processing

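The count of called members was 0 by genotype and 3 in ICC against HCC under most alternatives. By genotype it became 3 with spike-in scaling, and 0 to 1 without single tumors, the 1 being Lef1 without the HCC of mouse 3731. In ICC it became 1 with the filter for every array (5 members tested), with row as a block and with the methods' t-test, and was 2 to 4 without single tumors. Apc remained called in each of these ICC alternatives. Lef1 was called in ICC with scaling to probes above background on all arrays (1.46) and on the lower row alone (1.56), where 0 of 2 HCC and 2 of 5 ICC were well above background for it, so that the latter value rests on background. With the Mann-Whitney test Lgr5 lost its call (adjusted p = 0.110), and with the methods' t-test both Lgr5 and Sp5 did (0.0696 and 0.0521). Scaling to probes above background on all arrays moved the median of all probes by -0.25 by genotype and 0.36 in ICC, and quantile normalization by 0.11 and 0.01. The first of these, like spike-in scaling, subtracts 1 value per array and moves every difference alike. The calls it added are thus not particular to the members. The highest tumor of a group stayed the same in 24 to 29 of 30 pairs of member and group under the 4 other scalings and background corrections.

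With the mouse as a block for the pairing of HCC and ICC, the count was 2, Sp5 lost its call (2.16), and the small differences of Znrf3 (-0.01) and Rnf43 (-0.17) turned. Differences that were not called also turned elsewhere. By genotype these were Axin2 with normexp (-0.16), with row as a block and on the upper row alone (-0.24 in both), Sp5 with quantile normalization (0.16), Tbx3 (0.14) and Rnf43 (0.21) with slide as a block, and Tbx3 (0.28), Sp5 (0.20), Znrf3 (0.41) and Rnf43 (0.61) with spike-in scaling. In ICC they were Znrf3 (-0.05) and Ctnnb1 (0.18) with quantile normalization, Ctnnb1 (0.14) with scaling to probes above background on all arrays, and Axin2 (-0.06), Tbx3 (-0.33), Znrf3 (-0.21) and Rnf43 (-0.99) both with row as a block and on the lower row alone. All ICC lay in the lower row and all p53f/f HCC in the upper row. Row as a block and that row alone therefore give the same difference by construction. Without single tumors, the differences by genotype ran from -0.06 to 1.02 for Axin2, -0.97 to 0.14 for Tbx3, -0.75 to 0.22 for Rnf43 and -1.17 to 0.06 for Sp5, and that of Rnf43 in ICC from -0.18 to 0.47. Spike-in scaling and scaling to probes above background on all arrays moved every difference alike, so the turns under them come from a shift common to all probes. Except for these and where fewer probes or tumors entered, the cause was not tested.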
